A study of Mus musculus with 6 samples.

Results

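Expression of 10 mouse genes of the basement membrane was compared between blastocysts cultured in vitro and blastocysts that developed in vivo. The genes were chosen by name and encode 4 laminin chains (Lama1, Lama5, Lamb1 and Lamc1), 2 collagen IV chains (Col4a1 and Col4a2), nidogen (Nid1), perlecan (Hspg2), Sparc and dystroglycan (Dag1). All 10 were found among the 49993 genes of the count table, and all 10 were among the 14301 genes with enough counts for the test. RNA-seq libraries had been made from 3 in vitro and 3 in vivo samples. All mothers were superovulated, that is, made to ovulate many oocytes together, with PMSG (10 IU of the pregnant mare hormone) and with hCG (10 IU of the human chorionic hormone) after 48 h, and mated naturally. For the in vitro group, zygotes were collected 19 to 21 h after hCG and grown at 37 °C under 5% CO2 in KSOM, a potassium-enriched embryo medium, until they were blastocysts. For the in vivo group, uteri were flushed on day 3.5 to obtain the blastocysts. Neither mouse strain nor the age of the cultured blastocysts is given in the sources used here. Culture and blastocyst age thus cannot be told apart in this comparison.

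The basement membrane is a thin sheet of matrix beneath epithelia. Laminins assemble as trimers of an alpha, a beta and a gamma chain and polymerise at the cell surface, where integrins and dystroglycan hold them, while collagen IV forms a second, cross-linked network. Nidogen and perlecan link both networks. In the blastocyst, the primitive endoderm, a layer of the inner cell mass at the cavity, makes laminin and collagen IV and lays down the sheet on which it becomes an epithelium, and its parietal descendants later build the thick Reichert's membrane.

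Promoter windows from RefSeq on GRCm38.p6, each covering 250 bases before and 50 bases after a start site, matched 8 of the 10 genes. The genes without a match were Lama1 and Lamc1. The windows of Col4a1 and Col4a2 are shown because these genes lie head to head and their windows overlap. The 78 bases that both windows share, chr8:11312777-11312854, are in capitals.
Col4a1, chr8:11312777-11313076, minus strand: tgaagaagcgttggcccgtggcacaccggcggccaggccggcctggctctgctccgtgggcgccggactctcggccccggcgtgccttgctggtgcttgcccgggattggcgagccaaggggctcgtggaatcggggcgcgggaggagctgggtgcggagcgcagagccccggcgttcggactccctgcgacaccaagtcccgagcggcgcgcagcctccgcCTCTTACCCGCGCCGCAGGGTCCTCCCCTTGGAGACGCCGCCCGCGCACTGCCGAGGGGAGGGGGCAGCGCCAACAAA
Col4a2, chr8:11312555-11312854, plus strand: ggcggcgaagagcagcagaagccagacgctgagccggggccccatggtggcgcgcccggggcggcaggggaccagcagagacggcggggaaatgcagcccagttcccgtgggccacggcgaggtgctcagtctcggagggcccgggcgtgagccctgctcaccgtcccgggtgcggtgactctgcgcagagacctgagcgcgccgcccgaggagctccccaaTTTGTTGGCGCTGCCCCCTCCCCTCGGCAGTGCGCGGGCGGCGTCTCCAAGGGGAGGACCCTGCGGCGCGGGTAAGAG
The window of Hspg2, the gene with the largest fold change of the 10, is shown with its 5 GC boxes (GGGCGG on either strand) in capitals.
Hspg2, chr4:137468553-137468852, plus strand: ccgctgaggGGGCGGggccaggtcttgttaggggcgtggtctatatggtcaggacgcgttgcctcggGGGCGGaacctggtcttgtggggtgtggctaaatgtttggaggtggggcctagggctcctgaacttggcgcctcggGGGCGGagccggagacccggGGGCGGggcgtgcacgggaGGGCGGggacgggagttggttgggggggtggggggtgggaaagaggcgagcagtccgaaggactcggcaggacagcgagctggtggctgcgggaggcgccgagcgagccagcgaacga
GC boxes occurred in 35.7% of the 32851 promoter windows of the mouse table and in 7 of the 8 matched genes (in both windows of Dag1), Sparc being the exception. G and C bases made up 55.3% (Sparc) to 75.3% (Dag1) of these windows. The shares of GC boxes and of the motifs that follow were not tested at equal base content. CCAAT boxes (CCAAT on either strand) were found in 37.4% of all windows and in those of Col4a1, Col4a2, Dag1, Lamb1 and Nid1. A GATA motif (AGATAA or its variants, which are AGATAG and also TGATAA and also TGATAG, on either strand) was found in 29.8% of all windows and in none of the 9 windows of these genes, Dag1 having a second start site. Matches of different motifs did not overlap in these windows. The windows are not all separate sequences, since those of Col4a1 and Col4a2 overlap, as do those of Dag1.

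Totals were 6918288 to 12735551 counts per in vitro library and 9174789 to 17643429 counts per in vivo library. Libraries of a group differed widely. In vivo replicate 3 had Spearman correlations across genes of 0.786 and 0.793 with the other in vivo libraries, against 0.942 between those. Among the in vitro libraries these correlations were 0.789, 0.824 and 0.848, with in vitro replicate 3 in both lower pairs. The label of a single inner cell mass per library, with embryonic stem cell as cell type, stands beside a design text that speaks of blastocysts. Trophectoderm markers, genes of the outer cell layer, were detected in every library, with a summed level of 1334 to 2514 CPM (counts per 1000000 of the scaled library total) in vitro and 732.9 to 1493 CPM in vivo for 12 markers. The 10 epiblast markers summed to 686.1 to 1617 CPM in vitro and 905 to 1104 CPM in vivo. In such samples fewer cells of a type and less RNA per cell cannot be told apart. Separate litters are not stated, and the p-values then reflect only how far these samples spread, which may be technical.

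Lama1 and Hspg2 were higher in each in vitro library than in any in vivo library, and the other 8 genes overlapped between the groups. Log2 fold changes (the in vitro minus the in vivo group) were positive for 9 of the 10 genes and negative for Nid1, with a median of 0.69, where 49.8% of all tested genes were positive and the median was −0.01. With scaling by library totals alone, 36.2% of all genes were positive. For each of the 8 overlapping genes the SD in vitro was larger than the difference between the group means. None passed the quasi-likelihood test of edgeR at an adjusted p below 0.05, and neither did any of the 14301 genes (0%). At an unadjusted p below 0.05 stood 2 of the 10 genes, Lama1 and Hspg2, both higher in vitro, against 1458 of all genes (10.2%), with 731 of them higher (5.11%) and the remaining 727 lower in vitro (5.08%). DESeq2, which the submitters' processing notes name, called Lama1 and Hspg2. It called 2.99% of the 15796 genes to which it gave an adjusted p (1.65% in the higher direction). All later shares of genes called by DESeq2 are also of genes with an adjusted p. limma-voom called Lama1 only, against 0.804% of all genes. edgeR without its filter on low counts called Lama1 and Hspg2, against 1.4% of genes. Non-overlap in either direction held for 19.3% of all tested genes. Every in vitro library was higher for 9.27% and lower for 10%.

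**Figure D1:**
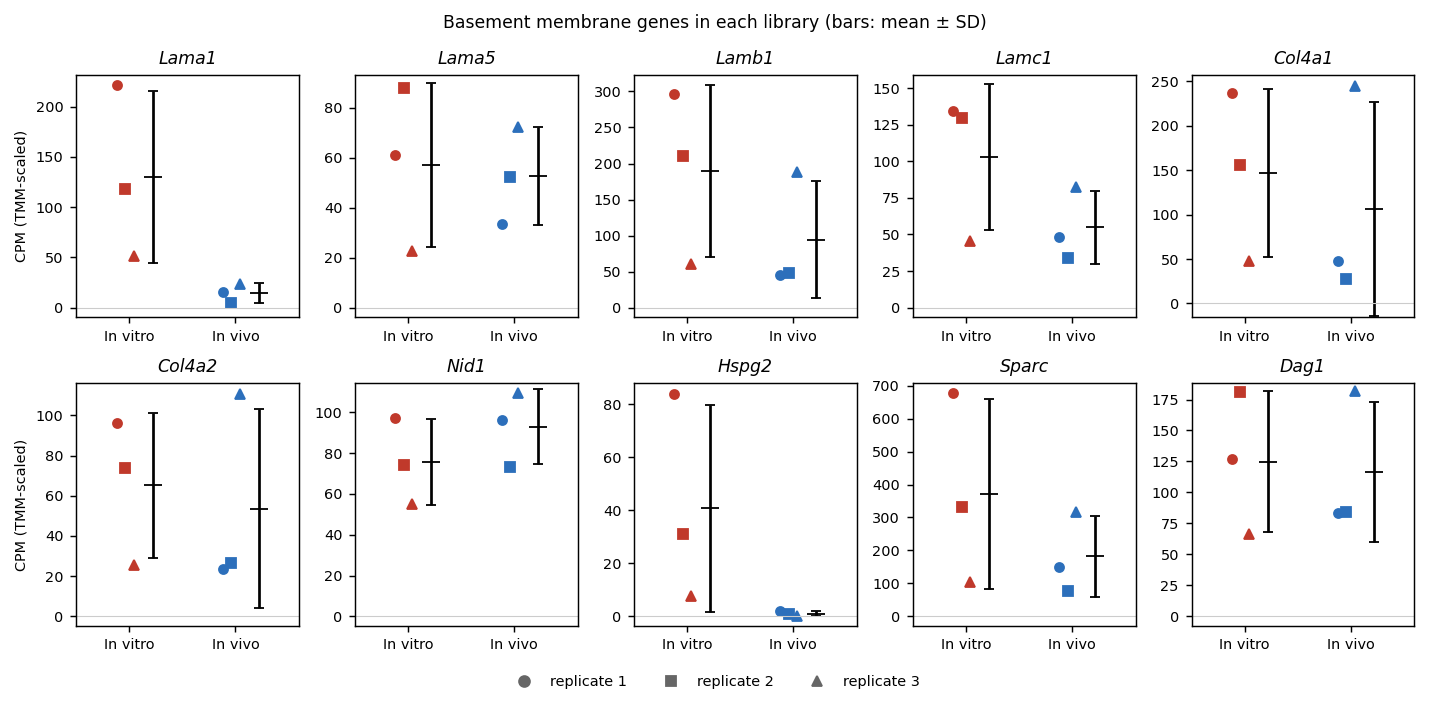
Level of each of the 10 genes (CPM, each panel with its own linear axis) in the 3 in vitro and the 3 in vivo libraries, with symbols for the replicate and bars for mean ± SD. Lama1 and Hspg2 do not overlap between the groups, and for Col4a1, Col4a2, Nid1 and Dag1 the highest library is in vivo replicate 3.

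Lama1, on the plus strand of chromosome 17 (67697127 to 67822645, GRCm38), encodes the laminin alpha 1 chain, which has the domains that bind dystroglycan. It was at 221, 119 and 50.9 CPM in in vitro replicates 1, 2 and 3, against 15.4, 4.47 and 23.9 CPM in in vivo replicates 1, 2 and 3. The lowest in vitro library was thus above the highest in vivo library. The mean was 130 ± 86 CPM in vitro and 14.6 ± 9.74 CPM in vivo (SD, n = 3 each), a ratio of means of 8.93. The log2 fold change was 3.16 ± 0.71 (SE), with an adjusted p of 0.311 by edgeR, 0.00143 by DESeq2 and 0.0381 by limma-voom. With each library left out in turn it ranged from 2.54 to 3.71. The DESeq2 call was lost without in vitro replicate 1 (adjusted p = 0.0547), where 1.7% of all genes were called.

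Lama5, on the minus strand of chromosome 2 (180176373 to 180225904), encodes the laminin alpha 5 chain, the alpha chain of the laminin that supports pluripotent cells in culture. It was at 61.0, 87.8 and 22.6 CPM in vitro, against 33.4, 52.1 and 72.4 CPM in vivo. These ranges overlapped, with an in vitro library at either end. The log2 fold change was 0.12 ± 0.52 (SE, edgeR adjusted p = 0.962).

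Lamb1, on the plus strand of chromosome 12 (31265146 to 31329644), encodes the beta 1 chain, which pairs with either alpha chain. It was at 296, 211 and 60.1 CPM in vitro, against 45.8, 48.7 and 189 CPM in vivo. Lamc1, on the minus strand of chromosome 1 (153218922 to 153332786), encodes the gamma 1 chain, which carries the nidogen-binding site. It was at 134, 130 and 45.3 CPM in vitro, against 48.2, 33.6 and 82.5 CPM in vivo. For both chains, in vitro replicates 1 and 2 were the highest libraries and in vivo replicate 3 came next. The log2 fold changes were 1.00 ± 0.69 for Lamb1 and 0.91 ± 0.50 for Lamc1 (SE, edgeR adjusted p = 0.659 and 0.577). Gm8818, a gene of unstated function on the opposite strand within Lamc1, had 12 to 80 counts per library, and strand was not marked.

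The ratio of the alpha chains differed between the groups in every library. Per kilobase of gene model, Lama1 was at 4.20, 1.56 and 2.60 times the level of Lama5 in vitro, against 0.534, 0.1 and 0.383 times in vivo. Lama1 thus had the higher level of the 2 in each in vitro library and the lower in each in vivo library. The mean log2 ratio was 1.36 ± 0.71 in vitro and −1.87 ± 1.28 in vivo (SD, n = 3 each), a difference of 3.23. The exact two-sided permutation test gave p = 0.1, the smallest that 3 against 3 libraries allow, and 0.2 after Benjamini-Hochberg adjustment over the 4 ratios examined. The Lamb1 to Lamc1 ratio overlapped, at 2.87, 2.12 and 1.73 in vitro and 1.24, 1.89 and 2.97 in vivo (difference in mean log2 ratio 0.20, exact permutation p = 0.8).

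**Figure D2:**
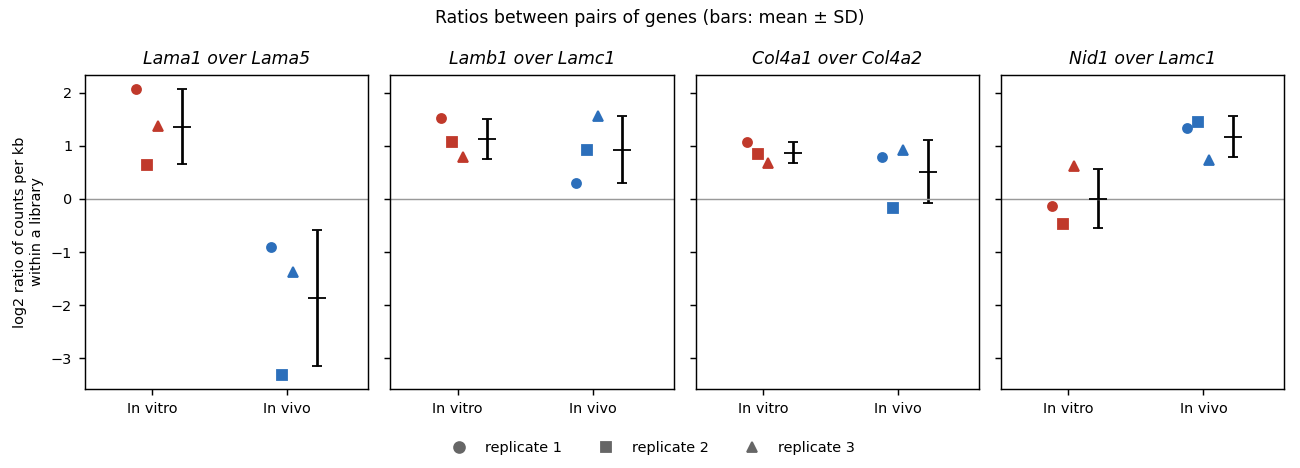
Log2 ratio of counts per kilobase between pairs of genes within each library, for 3 in vitro and 3 in vivo libraries, with bars for mean ± SD. Lama1 over Lama5 is above 0 in each in vitro library and below 0 in each in vivo library, Nid1 over Lamc1 is lower in each in vitro library than in any in vivo library, and the other ratios overlap.

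Col4a1 and Col4a2, on the minus strand (11198423 to 11312889) and the plus strand (11312805 to 11449287) of chromosome 8, encode the chains that assemble as the common collagen IV trimer. Col4a1 was at 237, 155 and 47.8 CPM in vitro, against 47.3, 27.3 and 245 CPM in vivo. Col4a2 was at 96.0, 73.8 and 25.5 CPM in vitro, against 23.5, 26.3 and 111 CPM in vivo. In vivo replicate 3 was the highest of all 6 libraries for both genes, while the other in vivo libraries lay with in vitro replicate 3 at the low end. The log2 fold changes were 0.46 ± 0.81 for Col4a1 and 0.28 ± 0.68 for Col4a2 (SE, edgeR adjusted p = 0.890 and 0.922). Leaving out in vivo replicate 3 gave 1.98 ± 0.66 and 1.39 ± 0.57 (adjusted p = 0.276 and 0.339), and leaving out in vitro replicate 1 gave −0.063 and −0.10. The gene models overlap by 85 bases. The levels of the pair had a Pearson correlation of 0.967 over the 6 libraries, the highest among the 45 pairs of the 10 genes. Their ratio per kilobase was 2.11, 1.81 and 1.6 in vitro and 1.72, 0.889 and 1.90 in vivo (difference in mean log2 ratio 0.36, exact permutation p = 0.5). In vivo replicate 2 was the single library with less Col4a1 than Col4a2 per kilobase. Gm46030, on the opposite strand within Col4a2, had 0 to 104 counts per library.

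Nid1, on the plus strand of chromosome 13 (13437602 to 13512275), encodes the glycoprotein that bridges laminin gamma 1 and collagen IV. It was at 97.4, 74.2 and 55.2 CPM in vitro, against 96.3, 73.3 and 110 CPM in vivo. Among the 10 genes it was the steadiest across libraries and the one with a negative log2 fold change, −0.30 ± 0.34 (SE, edgeR adjusted p = 0.810). Set against its laminin partner within each library, Nid1 per kilobase was at 0.916, 0.721 and 1.54 times Lamc1 in vitro, against 2.52, 2.75 and 1.67 times in vivo. The groups did not overlap, although in vitro replicate 3 and in vivo replicate 3 were close. The difference in mean log2 ratio was −1.17, with 0.01 ± 0.56 in vitro and 1.18 ± 0.38 in vivo (SD, n = 3 each, exact permutation p = 0.1, adjusted 0.2).

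Hspg2, on the plus strand of chromosome 4 (137468751 to 137570630), encodes perlecan, a large heparan sulphate proteoglycan that binds laminin, nidogen and growth factors. It had 479, 423 and 59 counts in vitro, which is 83.8, 30.9 and 7.68 CPM, against 24, 10 and 0 counts in vivo, which is 1.87, 0.798 and 0 CPM. The lowest in vitro library was above the highest in vivo library, and both groups spread widely. A count of 0 in in vivo replicate 3 allows up to 0.215 CPM, a limit for counting error only, so perlecan transcripts were not detected there at this depth. The mean was 40.8 ± 39.0 CPM in vitro and 0.891 ± 0.941 CPM in vivo (SD, n = 3 each), a ratio of means of 45.8. The log2 fold change was 5.51 ± 1.30 (SE), with an adjusted p of 0.315 by edgeR, 0.000188 by DESeq2 and 0.0785 by limma-voom. It ranged from 4.44 to 6.64 with each library left out in turn, and DESeq2 called Hspg2 in each of these 6 fits (adjusted p of at most 0.0416, without in vitro replicate 1). In vivo replicate 3 had the most Col4a1, Col4a2, Nid1 and Dag1 of all libraries, and the least Hspg2.

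Sparc, on the minus strand of chromosome 11 (55394159 to 55420080), encodes a secreted calcium-binding protein that binds collagen IV and is abundant in parietal endoderm. It was at 676, 332 and 105 CPM in vitro, against 150, 77.9 and 317 CPM in vivo. In vitro replicates 1 and 2 were the highest libraries, while in vitro replicate 3 lay within the in vivo range (log2 fold change 1.03 ± 0.68, SE, edgeR adjusted p = 0.640). Dag1, on the minus strand of chromosome 9 (108204861 to 108263977), encodes dystroglycan, whose sugar chains bind laminin and perlecan. It was at 127, 181 and 66.5 CPM in vitro, against 83.2, 84.5 and 182 CPM in vivo. The highest in vitro and the highest in vivo library had nearly the same level of Dag1 (log2 fold change 0.10 ± 0.46, SE, edgeR adjusted p = 0.964).

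Levels were compared between genes as CPM per kilobase of gene model. Sparc led in both groups, with 138 ± 107 in vitro and 67.5 ± 45.5 in vivo (SD, n = 3 each), and it was above each of the other genes in every library. In vitro the order of means was then Lamb1, Dag1, Col4a1, Lamc1, Lama1, Nid1, Col4a2, Lama5 and Hspg2, and each neighbouring pair overlapped within 1 SD, Sparc and Lamb1 included. In vivo the order after Sparc was Dag1, Lamb1, Nid1, Col4a1, Col4a2, Lamc1, Lama5, Lama1 and Hspg2. There Lama1 (1.45 ± 0.97) stood below Lama5 (4.52 ± 1.67) by more than their SD, and Hspg2 (0.0623 ± 0.0658) stood below Lama1. Hspg2 was the lowest of the 10 in each in vivo library, and in vitro it averaged 2.85 ± 2.73. Among all tested genes of a library, Sparc stood at percentile 85 to 98.2 of level per kilobase, Lama1 at 11.9 to 84 and Hspg2 at 2.03 to 60.7.

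The summed level of the 10 genes was 2030, 1394 and 487 CPM in vitro, against 545, 429 and 1331 CPM in vivo, so in vitro replicate 3 and in vivo replicate 3 each lay among the libraries of the other group. In vitro replicate 1 had the highest level of 5 genes (Lama1, Lamb1, Lamc1, Hspg2 and Sparc), and in vivo replicate 3 that of 4. Over the 6 libraries the 45 pairs of genes had a median Pearson correlation of log2 CPM of 0.716, and 10 pairs reached at least 0.9, Lamb1 and Col4a2 (0.961) and Lamb1 and Lamc1 (0.954) among them. Over all pairs of the 14301 tested genes the median r was 0.00475, and 1.6% of pairs reached at least 0.9, against 22.2% of the 45 pairs. Some pairs with Hspg2 or Nid1 were near 0. Hspg2 had an r of 0.024 with Dag1 and 0.051 with Lama5, and Nid1 an r of 0.019 with Lama1. The single pair below 0 was Nid1 and Hspg2 (−0.277). These correlations rest on 6 libraries that share depth and scaling within each library. The pairs of all tested genes were not matched to the 10 genes for level or length. Among other genes of at least 10 CPM, the 5 whose levels were most like the mean of the standardised 10 genes were Igf2bp1 (r = 0.994), Zdhhc21 (0.989), Clstn1 (0.989), Ppm1f (0.984) and Cubn (0.983).

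Without in vivo replicate 3, 7 of the 10 genes had an unadjusted edgeR p below 0.05, all higher in vitro, against 14.2% of all genes in either direction and 7.07% in the higher direction. Their median log2 fold change was then 1.55, against 0.69 with all libraries, and none passed after adjustment (the smallest adjusted p was 0.162, for Lama1). DESeq2 then called 4 of the 10, Lamb1 (adjusted p = 0.0317) and Col4a1 (0.0450) beside Lama1 and Hspg2, while its calls over all genes were 918 (5.88%), against 473 with all libraries. Without in vitro replicate 3, 4 of the 10 genes (Lama1, Lamc1, Hspg2 and Sparc) had an unadjusted edgeR p below 0.05, against 8.72% of all genes, and the median was 1.07. Without in vitro replicate 1, the library with the highest summed level, the median was 0.18. In that fit, and without in vitro replicate 2, in vivo replicate 1 or in vivo replicate 2, 2 of the 10 genes stood below that p. These fits had 846 to 1930 of all genes below it and medians of 0.18 to 0.55. In vivo replicate 3 had the highest summed level of its group and in vitro replicate 3 the lowest of its own. Leaving out either thus widens the gap in summed level.

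**Figure D3:**
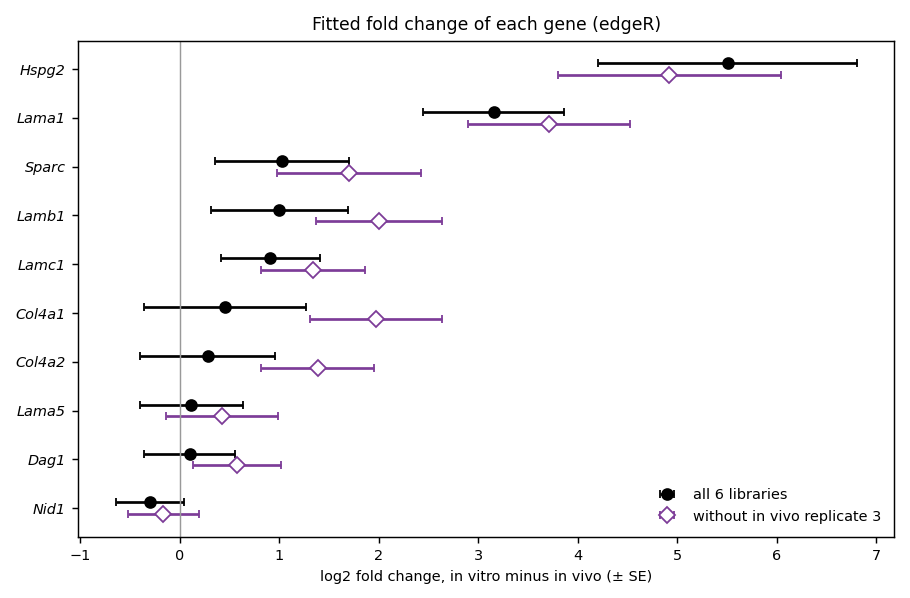
Log2 difference (in vitro minus in vivo, ± SE) of each gene fitted by edgeR over all 6 libraries (filled) and without in vivo replicate 3 (open). Hspg2 and Lama1 are far to the right in both fits, and Col4a1 is at 0.46 with all libraries and at 1.98 without in vivo replicate 3.

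Fold changes moved with gene length over the whole table. The 4861 tested genes under 2000 bases had a median log2 fold change of −0.34, and the 1142 tested genes of at least 10000 bases a median of 0.30, with 64.5% of them positive. Of the 10 genes, 6 have models of 5855 to 7622 bases, where the median of the 2951 genes from 5000 to under 10000 bases was 0.29. Lama1 (10042 bases) and Hspg2 (14304 bases) were above the 95th percentile of the longest class, 2.11, whereas Lama5 (11642 bases) was below that class's median. The part of length in these fold changes was not tested. The share of counts from 18S ribosomal RNA, 35.8% to 40.4% in vitro and 16.7% to 41.7% in vivo, was highest in in vivo replicate 3. Without the ribosomal RNA rows the log2 fold change was 3.15 for Lama1 and 5.49 for Hspg2, the median of the 10 genes was 0.68, and edgeR called 0 of them.

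**Figure D4:**
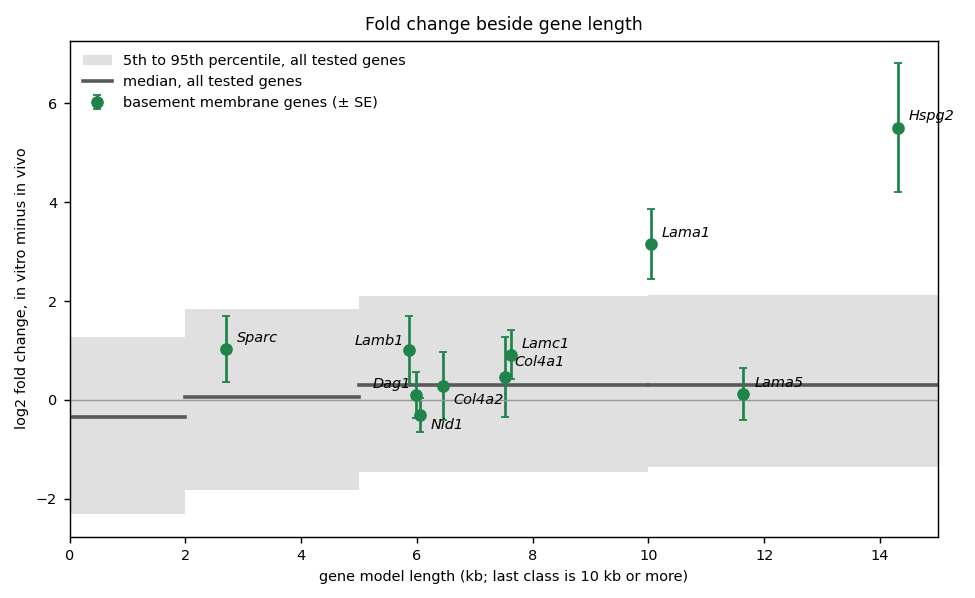
Log2 difference (in vitro minus in vivo) against gene model length for the 10 genes (points, ± SE), with the median (line) and the 5th to 95th percentile (grey) of all tested genes in 4 length classes. Lama1 and Hspg2 are above the grey band and the other 8 genes are within it.

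The other laminin chains were scarce, and 3 of 7 could be tested. Lama3, an alpha chain of epithelial laminin, was at 2.41 ± 1.04 CPM in vitro and 9.13 ± 2.48 CPM in vivo (SD, n = 3 each). The groups did not overlap, and the edgeR adjusted p was 0.485. Lamb3, a beta chain of epithelial laminin, had 0 counts in all 6 libraries. None of the other 4 collagen IV chains had enough counts to be tested, and their summed level was at most 8.46 CPM in vitro and 0.312 CPM in vivo. Of 18 other matrix proteins 7 were tested, 4 with a positive and 3 with a negative log2 fold change. Among them were Agrn, the proteoglycan agrin (30.9 ± 24.4 CPM in vitro and 18.6 ± 10.7 CPM in vivo), and Fn1, fibronectin (155 ± 43.4 and 114 ± 78.0 CPM in the same order).

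Receptors for the basement membrane lay in both directions. Of 18 receptor genes 12 were tested, 5 positive and 7 negative, with a median log2 fold change of −0.24, and DESeq2 called none of these 12. Itgb1, an integrin beta chain of laminin receptors, was at 38.3 ± 5.65 CPM in vitro and 48.0 ± 12.9 CPM in vivo. Its laminin-binding partner Itga6 was at 76.5 ± 30.8 CPM in vitro and 94.8 ± 62.3 CPM in vivo. Ddr1, a collagen receptor kinase, was at 8.97 ± 4.80 CPM in vitro and 2.18 ± 0.82 CPM in vivo (edgeR adjusted p = 0.485), and the fibronectin receptor chain Itga5 at 12.4 ± 7.10 CPM in vitro and 18.7 ± 3.49 CPM in vivo.

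Genes that equip dystroglycan were mixed. Of 11 tested genes for its sugar chains 7 were positive and 4 negative. Pomgnt1, which adds N-acetylglucosamine to the mannose core, was at 7.04 ± 6.62 CPM in vitro and 24.5 ± 10.6 CPM in vivo. Of 5 tested genes of the attached complex 3 were positive. Utrn, the cytoskeletal linker utrophin, was at 15.6 ± 3.36 CPM in vitro and 6.04 ± 1.70 CPM in vivo, and the syntrophin gene Sntb2 at 10.8 ± 2.42 CPM in vitro and 25.7 ± 11.7 CPM in vivo (SD, n = 3 each). The edgeR adjusted p was 0.469 for Pomgnt1, 0.482 for Utrn and 0.464 for Sntb2.

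Of 19 tested genes for collagen processing and export 13 were positive and 6 negative, with a median log2 fold change of 0.47. Serpinh1, the collagen chaperone of the endoplasmic reticulum, was at 119, 73.2 and 8.98 CPM in vitro, against 16.4, 13.2 and 96.1 CPM in vivo. Like the collagen IV genes it was high in in vivo replicate 3 and low in in vitro replicate 3. P4hb, a subunit of prolyl hydroxylase, was at 171 ± 78.8 CPM in vitro and 178 ± 46.6 CPM in vivo. Sec31a, a coat protein of the vesicles that carry cargo out of the endoplasmic reticulum, was at 72.0 ± 20.0 CPM in vitro and 34.6 ± 4.21 CPM in vivo with no overlap (edgeR adjusted p = 0.403). Ppib, a prolyl isomerase of collagen folding, was at 4.06 ± 2.58 CPM in vitro and 17.7 ± 11 CPM in vivo (adjusted p = 0.426). Of 7 crosslinking enzymes Loxl2 alone was tested (7.99 ± 6.72 CPM in vitro and 3.18 ± 1.49 CPM in vivo). Of 14 remodelling genes 6 were tested, 3 in each direction, with Plaur, the urokinase receptor, at 10.8 ± 5.95 CPM in vitro and 20.9 ± 6.87 CPM in vivo and the protease inhibitor gene Timp3 at 1.19 ± 1.04 CPM in vitro and 4.82 ± 6.20 CPM in vivo. Among the tested genes of all these lists beyond the 10 genes, edgeR and DESeq2 called none. DESeq2 results of the list genes that failed edgeR's filter were not examined. At an unadjusted edgeR p below 0.05 stood Ddr1, Utrn and Sec31a, higher in vitro, and Lama3, Pomgnt1, Sntb2 and Ppib, lower in vitro. Their lists had 3 (laminin chains), 12 (receptors), 11 and 5 (dystroglycan) and 19 (collagen processing) tested genes. The lists with 7, 1 and 6 tested genes had none. Over all tested genes the share below this p was 10.2%, with 5.11% higher and 5.08% lower in vitro.

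**Figure D5:**
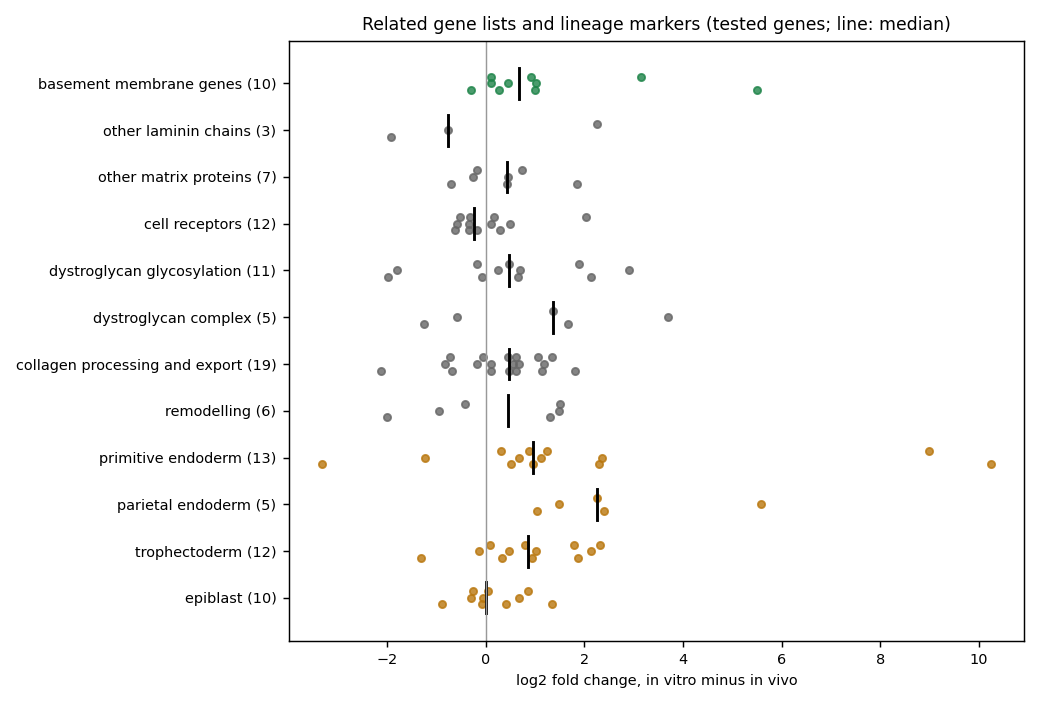
Log2 difference (in vitro minus in vivo) of each tested gene in the lists with at least 3 tested genes, with the number tested in brackets and a line at the median. Green marks the basement membrane genes (median 0.69), orange the lineage markers (primitive endoderm 0.96) and grey the other lists (receptors −0.24), and the 2 rightmost points are Sox7 and Foxa2, whose values depend on the fit because they had 1 and 0 counts in vivo.

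Markers of primitive endoderm had a higher summed level in each in vitro library than in any in vivo library. The 16 primitive endoderm markers summed to 1070, 990.5 and 815 CPM in vitro, against 552, 509.5 and 602 CPM in vivo. Most of this sum came from Dab2, Lrp2, Gata6 and Fgfr2. From which lineage the transcripts of these genes came was not tested. Dab2 was at 203 ± 70.0 CPM in vitro and 110 ± 26.3 CPM in vivo without overlap. Lrp2 was at 194 ± 76.6 CPM in vitro and 136 ± 37.0 CPM in vivo with overlap. Of 13 tested markers 11 were positive, edgeR called none, and DESeq2 called 3 higher and 1 lower, against 2.99% of all genes. Those higher in vitro were Fgfr2, a receptor of the growth factor that directs the lineage (118 ± 22.6 CPM in vitro and 49.4 ± 10.8 CPM in vivo), and the transcription factor genes Sox7 (112, 425 and 32 counts in vitro, against 0, 0 and 1 count in vivo) and Foxa2 (196, 54 and 22 counts in vitro, against 0 counts in each in vivo library). The lower one was Hnf4a, a transcription factor of visceral endoderm, at 1.28 ± 0.97 CPM in vitro and 13.0 ± 6.15 CPM in vivo without overlap (DESeq2 adjusted p = 0.00924). The other negative marker was Apoa1, an apolipoprotein gene (5.71 ± 8.63 CPM in vitro and 13.5 ± 2.29 CPM in vivo). Gata6, which specifies primitive endoderm, was at 175 ± 25.8 CPM in vitro and 109 ± 25.1 CPM in vivo, and Gata4, another endodermal GATA factor, at 33.1 ± 19.4 CPM in vitro and 6.75 ± 5.62 CPM in vivo (SD, n = 3 each), both without overlap (edgeR adjusted p = 0.501 and 0.493). Sox17, a transcription factor of the lineage, was at 55.1 ± 23.7 CPM in vitro and 28.3 ± 21.8 CPM in vivo, and its receptor kinase Pdgfra at 87.4 ± 60.8 CPM in vitro and 70.5 ± 36.7 CPM in vivo, both with overlap. The 8 parietal endoderm markers summed to 83.1, 58.8 and 33.6 CPM in vitro, against 21.4, 10.9 and 13.2 CPM in vivo. Of these, 5 were tested and all 5 were positive. edgeR called none, and DESeq2 called 1, Vim (adjusted p = 8.47e-06), against 2.99% of all genes. Vim was at 27.3, 10.7 and 13.1 CPM in vitro, against 0, 0.239 and 0.787 CPM in vivo. Ttr and Afp, markers of visceral endoderm, had 0 counts in all libraries. Of the 12 trophectoderm markers 10 were also positive, with a median log2 fold change of 0.87, against 0.96 for primitive endoderm, and DESeq2 called 1 of them, Id2, higher. Of the 10 epiblast markers 5 were positive and 5 negative. The part of the number of cells of each lineage in the values of the 10 genes was not tested.

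Markers of cells outside the embryo were scarce, and their part in the values of the 10 genes was not tested. The 6 fibroblast and uterine stroma markers, with the fibrillar collagens Col1a1 and Col3a1 among them, summed to 0.525 to 2.93 CPM in vitro and 0 to 1.84 CPM in vivo, with Dcn and Lum at 0 counts throughout. The 6 cumulus and granulosa markers summed to at most 1.69 CPM in vitro and to 0 CPM in vivo. Uterine and oviduct epithelium markers summed to 0.13 to 5.34 CPM in vitro and 6.63 to 15.4 CPM in vivo, with Muc1 at 0.98 ± 1.43 CPM in vitro and 10.1 ± 5.38 CPM in vivo and Ltf and Lcn2 at 0 counts. Blood and endothelium markers summed to 2.73 to 7.54 CPM in vitro and 17.0 to 34.6 CPM in vivo, with Hbb-bs, Hbb-bt and Ptprc at 0 counts. In vivo this sum was nearly all Pecam1, at 17.3, 34.2 and 16.2 CPM of 17.3, 34.6 and 17.0 CPM. The mean of Pecam1 was 3.37 ± 3.23 CPM in vitro and 22.6 ± 10.1 CPM in vivo. Whether its transcripts came from cells outside the embryo was not tested.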

How the data were processed

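Per the labels' protocols, RNA came from a microextraction kit and libraries from a transposase kit, a type that marks no strand. Raw counts of reads per gene were deposited by the authors in 1 table that also holds gene lengths. Neither aligner nor counter is given in the sources used here. FastQC 0.11.2, DESeq2 and GRCm39 stand in the submitters' processing notes, whereas 47937 of the 49993 genes compared, all 10 members included, have the start and end of RefSeq genes on GRCm38.p6, so coordinates are given on that build.

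Counts were analysed with edgeR 4.0.16 in R 4.3.3: default filter on low counts by group, TMM scaling, robust dispersions, the legacy quasi-likelihood F-test (two-sided) and Benjamini-Hochberg adjustment over all 14301 genes. DESeq2 1.42.0 and limma 3.58.1 (voom with quality weights) were run beside it. Ratios used 0.5 added to each count. The 10 genes and all lists were chosen with earlier results of these data known. Named were the 10 genes, 8 genes set by name, the 2 of smallest p in each related list (some are not reported here) and the 5 most alike genes. Muc1, Pecam1, Sox7, Foxa2, Fgfr2, Dab2, Lrp2, Hnf4a, Apoa1, Vim and Id2 and the genes listed at 0 counts were named after their values were seen. No pair of libraries was a copy of another: the lowest chi-square per degree of freedom was 31.5. Totals of 6918288 to 17643429 counts set the precision. PCR copies cannot be told from molecules, so floors cover counting error only. Alternatives were other scalings, filters and tools, each library left out and the replicate number as a block. The DESeq2 fits with a library left out with their share of calls over all genes, the fit without in vitro replicate 3 beside the members' p-values, the correlations over all gene pairs and the length classes were added after the data were seen.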

Additional observations from a re-analysis of the deposited data

How the results depend on the processing

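The number of genes called depended on the tool and the filter. Over all genes edgeR called 0, against 391 without a low-count filter, 473 with DESeq2, 115 with limma-voom and 3 with edgeR's newer form, and of the 10 genes 2, 2, 1 and 0 were called in those 4 fits. Without a filter edgeR called Lama1 and Hspg2 (adjusted p = 4.99e-08 and 6.69e-10), 1.4% of its genes being called. The cause was not tested. With each library left out in turn, edgeR called 0 of all genes and 0 of the 10 genes, 6 to 9 were positive, and their median log2 fold change was 0.18 to 1.55. DESeq2, refitted so after the data were seen, called 1 to 4 of the 10 and 152 to 918 (0.949% to 5.88%) of all genes, the 4 in the fit that called 918. Scaling by library totals alone shifted the median of all genes by −0.31 and put Lama5 at −0.035 and Dag1 at −0.034, which is 0.28 and 0.28 above that median. Leaving out single libraries reversed Lama5 (−0.34 to 0.50), Col4a1 (−0.063 to 1.98), Col4a2 (−0.10 to 1.39) and Dag1 (−0.28 to 0.58), and the Lamb1 to Lamc1 log2 ratio difference ranged from −0.11 to 0.52. Lama1, Hspg2, Lamb1, Lamc1 and Sparc kept a positive sign, and Nid1 a negative one, in all 16 alternatives. The differences in the Lama1 to Lama5 ratio (2.51 to 3.72) and the Nid1 to Lamc1 ratio (−1.48 to −0.93) kept their signs in all 8. Groups share replicate numbers, which the main fit did not take as pairs. Correlations of same-numbered libraries' deviations from their group means were −0.0986, 0.096 and −0.0443, against −0.0903 to 0.116 for libraries of different numbers. With 3 libraries per group these values cannot decide whether the numbers are pairs. With the replicate block edgeR called 0 genes and the median of the 10 was 0.97.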
